A study of Mus musculus with 4 samples.

Results

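The proteasome genes were taken as every gene symbol of the count tables that begins with Psm, 1 letter from a to g and a number, which gave 50 of 23282 rows. They were sorted by known role into 14 constitutive core subunits, 5 immunoproteasome and interferon-inducible activator genes (Psmb8, Psmb9, Psmb10, Psme1 and Psme2), 17 subunits of the regulatory particle, 7 assembly chaperones, 3 other activators or inhibitors, 2 core subunits known from single tissues and 2 genes that share only the name. RNA was sequenced from mammary gland tumours of female FVB mice at 14 weeks of age, 2 samples labelled Nr1d1-/-;PyMT and 2 labelled Nr1d1+/+;PyMT. All 4 samples therefore carried PyMT, the polyoma virus middle T oncogene, and differed by label in Nr1d1, which encodes the circadian repressor REV-ERBα. The labels name neither the promoter of PyMT nor the design of the Nr1d1 allele, and whether each replicate is a separate animal is not stated, so the p-values describe the scatter of these 4 samples, part of which can be technical.

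The proteasome degrades proteins tagged with ubiquitin. Its core is a barrel of stacked rings, with alpha subunits at the ends that gate entry and beta subunits inside, of which Psmb5, Psmb6 and Psmb7 encode the catalytic members. The regulatory particle binds the ubiquitin tag, removes it, and threads the unfolded protein into the core with a ring of ATPases. Interferon gamma induces Psmb8, Psmb9 and Psmb10, which replace the constitutive catalytic subunits in the immunoproteasome, and Psme1 and Psme2, which form an activator ring. This form is known for cutting peptides for display on MHC class I molecules, in leukocytes constitutively and in tumour cells after interferon.

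The Nr1d1-/- libraries held 15905404 and 18017279 counts (replicates 1 and 2, the order kept throughout), against 19116279 and 17768820 counts in the Nr1d1+/+ libraries. Nr1d1 itself measured 10.6 and 12.8 CPM in the libraries labelled Nr1d1-/-, against 20.2 and 10.3 CPM in the libraries labelled Nr1d1+/+. CPM, the unit of every level below, is a gene's count relative to the library's total, corrected by TMM normalisation, which scales each library by a trimmed mean over genes. These ranges overlapped (log2 fold -0.37, adjusted p = 0.436, edgeR), and which part of Nr1d1 is deleted is not given, so the count does not check the genotype labels, and the genotype names below are those of the labels. The luminal epithelial marker Krt8 was abundant in every library (2495 and 2458 CPM in Nr1d1-/-, against 1269 and 1353 CPM in Nr1d1+/+). Of 5 luminal markers Krt8, Krt18 and Krt19 rose, and Cdh1 fell (188 and 212 CPM in Nr1d1-/-, against 358 and 305 CPM in Nr1d1+/+). Epcam overlapped (702 and 955 CPM in Nr1d1-/-, against 1221 and 908 CPM in Nr1d1+/+). A second fit, described below, removed trends of the counts with GC content and transcript length. There only Krt19 stayed called (log2 fold 0.81), and Krt8 (0.52), Krt18 (0.61) and Cdh1 (-0.49) did not pass. Nr1d1-/- replicate 1 stood apart in skeletal muscle markers, which summed to 613 CPM there, 1.80 CPM in Nr1d1-/- replicate 2, and 1.75 and 1.58 CPM in the Nr1d1+/+ libraries. Without that library, the median log2 fold of the tested proteasome genes was 0.53, against -0.02 over all tested genes. Summed red blood cell markers were 2016 and 2194 CPM in Nr1d1-/-, against 453 and 581 CPM in Nr1d1+/+ (5 of 5 rose). Of 6 endothelial markers 3 rose, against 16.5% of all tested genes (sums 63.8 and 87.7 CPM in Nr1d1-/-, against 42.2 and 53.3 CPM in Nr1d1+/+). These were Pecam1, Emcn and Eng. Kdr (log2 fold -1.14) and Cdh5 (-0.46) were lower in both Nr1d1-/- libraries without passing the test, and Tek overlapped. Of 4 tested adipocyte markers 2 rose (118 and 88.3 CPM in Nr1d1-/-, against 24.7 and 45.2 CPM in Nr1d1+/+). In bulk tumour RNA, a change in the number of cells of a type and a change in RNA per cell cannot be told apart.

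Promoters are shown because proteasome genes are known targets of stress and interferon factors, and REV-ERBα binds DNA at a short motif. RefSeq windows of 300 bases on GRCm38.p6, from 250 bases before to 50 after the transcription start, were found for 42 of the 50 genes and made 45 windows. Each was searched on both strands, and no hits of different motifs overlapped. The antioxidant response element TGACNNNGC, read by the stress factors that raise proteasome genes, was in 6 of 45 windows (13.3%), against 12.4% of all 32851 windows. The gamma-activated site TTCNNNGAA was in 3 (6.67%), against 8.3% of all windows. The interferon-stimulated response element, GAAA repeated after 2 bases, was in 5 (11.1%), against 3.44%. These were windows of Psmb3, Psmd4, Psmd9, Psme1 and Psmg4, of which only Psme1 is in the immunoproteasome class. The REV-ERB half-site was searched as the letters AGGTCA alone, without a condition on the bases beside them. These letters were in 11 windows (24.4%) of 10 genes, against 16.3% of all windows. Of those 10 genes 4 rose (Psma6, Psma7, Psmb10 and Psmc4), against 24 of all 49 tested members. One window is printed for each of 4 members described below, with the motif in capitals. The antioxidant response element is marked in Psmb5 at chr14:54617946-54618245 (minus strand) and in Psme4 at chr11:30771525-30771824 (plus strand, motif on the opposite strand). The gamma-activated site is marked in Psmb8 at chr17:34197945-34198244 (plus strand), and the letters AGGTCA in Psma7 at chr2:180042415-180042714 (minus strand). Gene coordinates below are on GRCm38 as well.
Psmb5: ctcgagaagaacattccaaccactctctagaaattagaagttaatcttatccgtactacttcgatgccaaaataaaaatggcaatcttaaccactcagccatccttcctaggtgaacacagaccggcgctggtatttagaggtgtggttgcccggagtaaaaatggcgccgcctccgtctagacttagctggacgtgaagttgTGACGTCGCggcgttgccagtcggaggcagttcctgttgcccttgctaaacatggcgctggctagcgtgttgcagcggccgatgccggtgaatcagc
Psme4: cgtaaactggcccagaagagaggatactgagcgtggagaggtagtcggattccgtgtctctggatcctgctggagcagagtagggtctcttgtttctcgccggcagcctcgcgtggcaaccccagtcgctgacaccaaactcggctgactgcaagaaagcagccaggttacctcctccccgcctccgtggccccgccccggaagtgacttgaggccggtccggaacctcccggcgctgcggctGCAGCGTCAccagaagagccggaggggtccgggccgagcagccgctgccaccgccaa
Psmb8: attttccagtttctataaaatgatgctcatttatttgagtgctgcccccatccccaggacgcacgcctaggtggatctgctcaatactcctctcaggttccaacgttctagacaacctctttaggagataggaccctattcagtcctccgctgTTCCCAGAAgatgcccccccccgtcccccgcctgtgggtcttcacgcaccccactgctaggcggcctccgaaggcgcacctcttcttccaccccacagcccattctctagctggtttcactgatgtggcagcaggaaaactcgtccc
Psma7: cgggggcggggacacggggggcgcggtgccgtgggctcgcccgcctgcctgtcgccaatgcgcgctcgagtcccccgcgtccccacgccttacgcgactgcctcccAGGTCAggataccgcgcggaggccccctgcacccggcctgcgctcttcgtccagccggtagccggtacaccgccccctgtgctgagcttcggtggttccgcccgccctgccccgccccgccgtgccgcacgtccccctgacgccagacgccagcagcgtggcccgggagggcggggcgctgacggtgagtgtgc
The antioxidant motif was thus present both in a gene that was higher (Psmb5) and in a gene that was lower (Psme4) in Nr1d1-/- tumours. A match describes these letters and not binding.

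Proteasome transcripts as a group were higher in Nr1d1-/- than in Nr1d1+/+ tumours. Of 49 members with enough counts to test, 24 rose, 1 fell and 24 did not pass an adjusted p of 0.05 (edgeR quasi-likelihood test, adjusted over 14801 genes). Among all tested genes 33.9% passed, 16.5% higher and 17.3% lower. The median log2 fold of the members was 0.58, with a range of -1.43 to 2.01, against a median of -0.01 over all tested genes. In 40 members both Nr1d1-/- values lay above both Nr1d1+/+ values and in 4 both lay below, against 34.4% and 36.2% of all tested genes. Together the 50 genes took 0.908% (95% Clopper-Pearson interval 0.903 to 0.913) and 0.881% (0.877 to 0.885) of all counts in the Nr1d1-/- libraries, against 0.775% (0.771 to 0.779) and 0.723% (0.719 to 0.726) in the Nr1d1+/+ libraries, where the intervals cover counting error only. Their summed level was 10589 and 9848 CPM in Nr1d1-/-, against 7006 and 6147 CPM in Nr1d1+/+. Rn45s, the ribosomal RNA precursor, moved with the genotype, at 4.36% and 7.64% of counts in Nr1d1-/-, against 2.94% and 3.39% in Nr1d1+/+ (log2 fold 1.30, SE 0.42, adjusted p = 0.0434, edgeR). Without Rn45s in the tables the members' median log2 fold was 0.58 and 24 rose.

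The size of the shift depended on whether trends of the counts with GC content and transcript length were taken out of each library. Members were short transcripts, with a median of 1430 bases; 19 of 36 members under 2000 bases rose, and 5 of 13 longer ones. With the GC and length trends of each library removed, 11 members rose and 1 fell, against 10.9% and 11.1% of 14634 genes, and the median log2 fold was 0.31. The rises that stood in both fits were those of Psma7, Psmb1, Psmb4, Psmb11, Psmd1, Psmd9, Psmd11 and Psmd13 (8 genes), and the fall of Psme4 stood as well. Fewer members, and fewer of all genes, passed as higher without Nr1d1+/+ replicate 2 than without any other library. The median log2 fold of the members was then 0.46, against 0.53 to 0.58 when any other library was left out. The calls of Psma7, Psmb4, Psmc3, Psmc4, Psmd1, Psmd8, Psmd13 and Psme4 held without each library in turn.

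**Figure D1:**
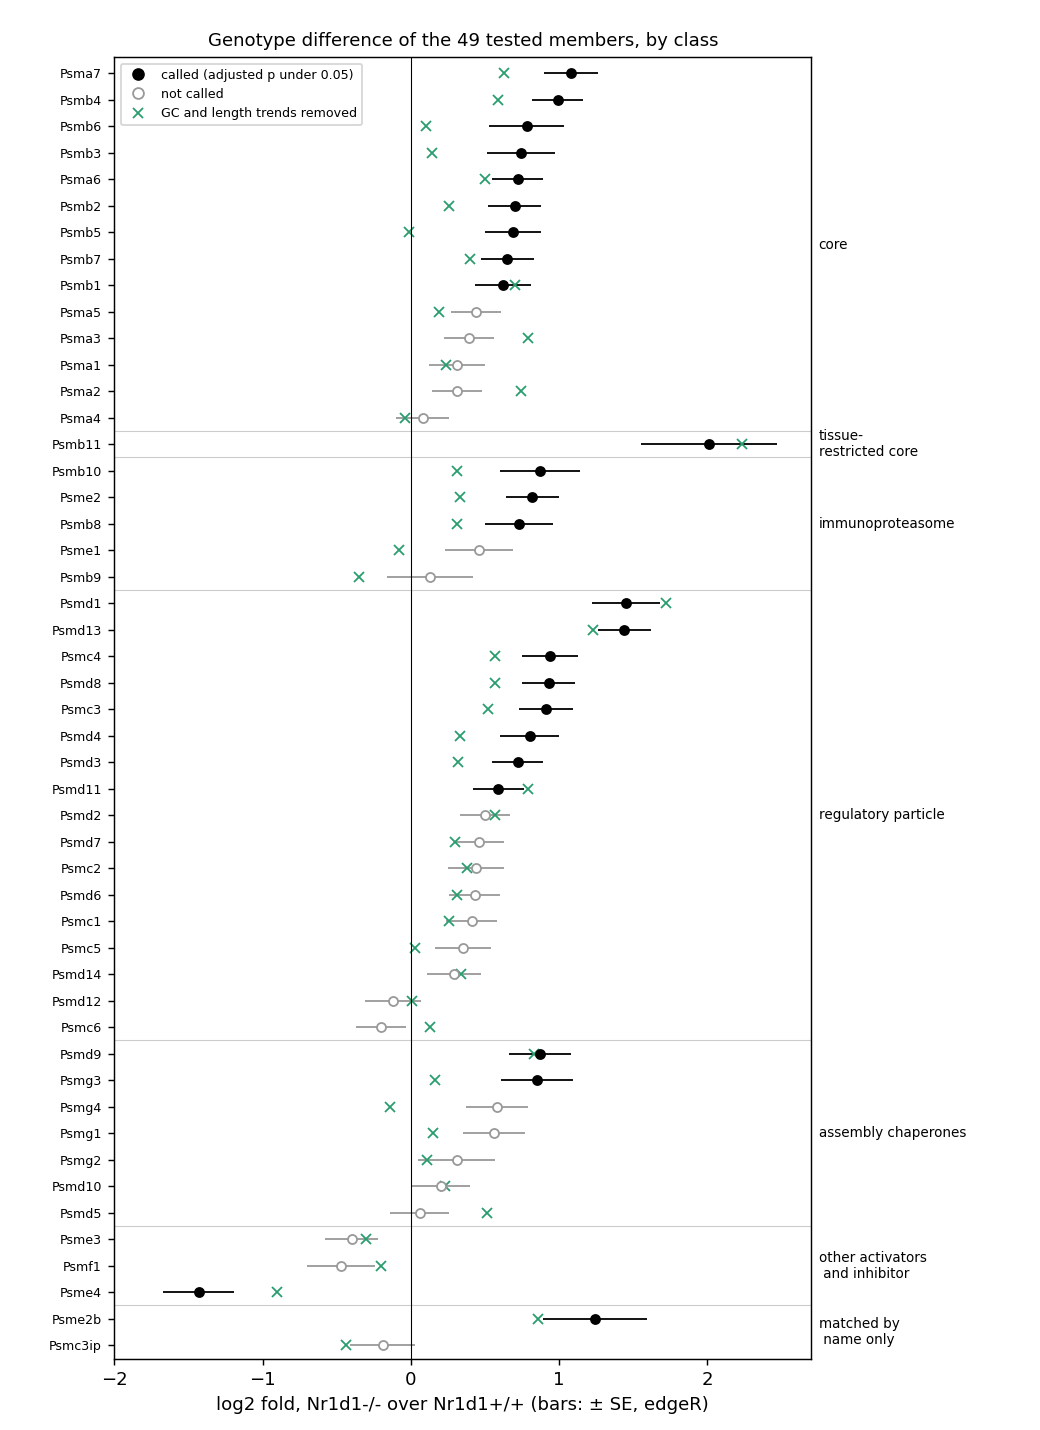
Log2 fold change (Nr1d1-/- over Nr1d1+/+) of the 49 tested proteasome genes by role, with bars for the standard error of the edgeR fit (n = 2 libraries each), fill for calls at an adjusted p of 0.05, and green crosses for the log2 fold with GC and length trends removed. Nearly all core, immunoproteasome and regulatory particle circles lie right of 0, and those of Psme4, Psme3 and Psmf1 lie left of it. Crosses lie left of most circles and close to 0 for Psmb5.

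**Figure D2:**
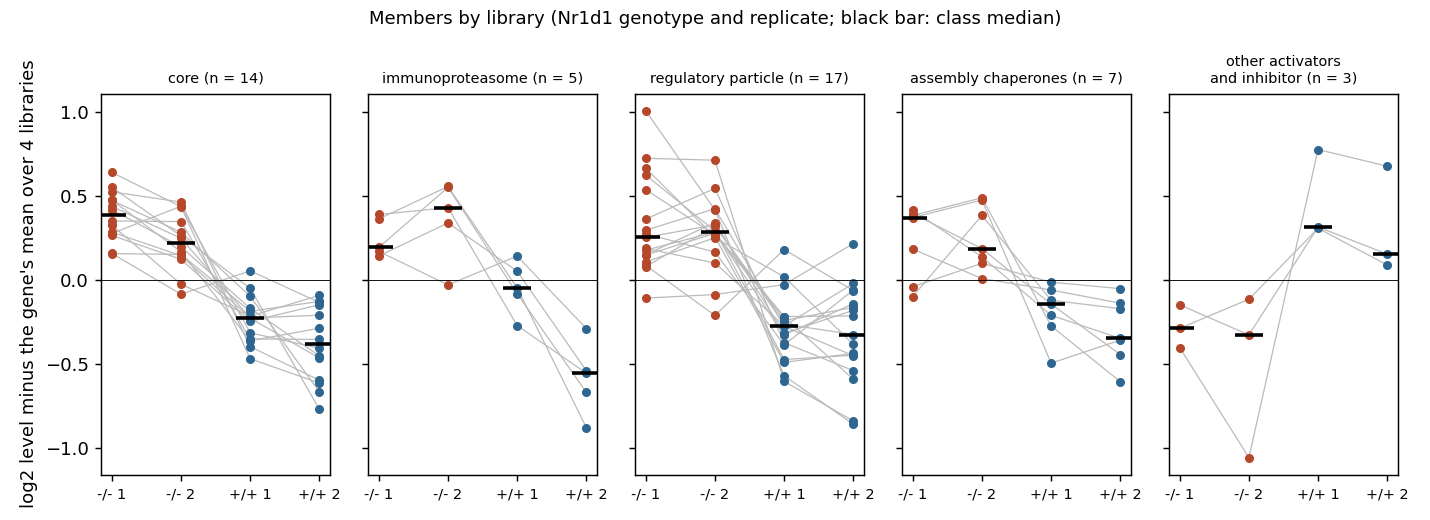
Level of each proteasome gene in each library, as the log2 difference from the gene's mean over the 4 libraries, in a panel for each role, with Nr1d1-/- libraries left of Nr1d1+/+ libraries. Grey lines join the values of 1 gene and black bars are the median of the role; the bars lie above 0 in both Nr1d1-/- libraries and below 0 in both Nr1d1+/+ libraries in 4 panels, and the other way round for the activators and inhibitor.

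The core subunits rose in 9 of 14 cases and none fell, against 16.5% and 17.3% of all tested genes, with a median log2 fold of 0.67 (0.08 to 1.08). Their summed level was 4025 and 3565 CPM in Nr1d1-/-, against 2608 and 2317 CPM in Nr1d1+/+, without overlap. The beta ring carried most of the calls: all 7 constitutive beta subunits rose (median log2 fold 0.70), and 2 of 7 alpha subunits (median 0.39), a difference that was not tested. Beta transcripts also had a median GC content of 52.2% and alpha transcripts 45.0%. With the GC and length trends removed, 3 alpha subunits rose (Psma2, Psma3 and Psma7) and 2 beta subunits (Psmb1 and Psmb4). Without Nr1d1+/+ replicate 2 the calls of Psma7 and Psmb4 held and the other 7 did not, with log2 folds of 0.44 to 0.68. Without Nr1d1+/+ replicate 1 or Nr1d1-/- replicate 1, 4 core subunits passed, and without Nr1d1-/- replicate 2, 8 passed.

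Psma7, an alpha-ring subunit encoded at chr2:180036374-180042433, measured 852 and 739.5 CPM in Nr1d1-/- tumours, against 394 and 357 CPM in Nr1d1+/+ tumours. Both Nr1d1-/- libraries lay far above both Nr1d1+/+ libraries (log2 fold 1.08, SE 0.18, adjusted p = 0.00399, edgeR). Psma7 was also the core transcript with the highest level per kilobase, 871 CPM per kb in Nr1d1-/- and 411 in Nr1d1+/+. Psmb4, a noncatalytic beta subunit at chr3:94884093-94886961, measured 206 and 197 CPM in Nr1d1-/-, against 109 and 94.5 CPM in Nr1d1+/+ (log2 fold 0.99, SE 0.17, adjusted p = 0.00451, edgeR). With the trends removed the log2 folds were 0.63 for Psma7 and 0.59 for Psmb4, and both stayed called (edgeR adjusted p = 0.0335 and 0.0321).

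The 3 constitutive catalytic subunits were each higher without overlap in Nr1d1-/- tumours. Psmb5, the chymotrypsin-like site, measured 81.7 and 71.6 CPM in Nr1d1-/-, against 51.5 and 43.6 CPM in Nr1d1+/+ (log2 fold 0.69, SE 0.19, adjusted p = 0.025, edgeR). Psmb6, the caspase-like site, measured 544 and 445 CPM in Nr1d1-/-, against 358 and 217 CPM in Nr1d1+/+ (log2 fold 0.78, SE 0.25, adjusted p = 0.0399, edgeR). Psmb7, the trypsin-like site, measured 151 and 122 CPM in Nr1d1-/-, against 84.5 and 89.0 CPM in Nr1d1+/+ (log2 fold 0.65, SE 0.18, adjusted p = 0.0256, edgeR). None of these 3 calls held with the GC and length trends removed, where the log2 folds were -0.01 for Psmb5, 0.10 for Psmb6 and 0.40 for Psmb7. Per kilobase of transcript, Psmb6 was the most abundant of them (619.6 CPM per kb in Nr1d1-/- and 361 in Nr1d1+/+), above Psmb7 (118 and 74.8) and Psmb5 (85.2 and 52.9).

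Other beta subunits rose by similar amounts. Psmb1 measured 430.5 and 369 CPM in Nr1d1-/-, against 286 and 235 CPM in Nr1d1+/+ (log2 fold 0.62, adjusted p = 0.0327, edgeR). Psmb2 was nearly the same within each genotype, at 78.6 and 78.4 CPM in Nr1d1-/-, against 48.3 and 48.2 CPM in Nr1d1+/+ (log2 fold 0.70, adjusted p = 0.017, edgeR). Psmb3 measured 97.5 and 85.5 CPM in Nr1d1-/-, against 65.6 and 44.2 CPM in Nr1d1+/+ (log2 fold 0.74, adjusted p = 0.0345, edgeR). Of these, Psmb1 stood with the trends removed (log2 fold 0.70), and Psmb2 (0.26) and Psmb3 (0.14) did not.

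Among alpha subunits, Psma6 rose as well, at 245 and 274 CPM in Nr1d1-/-, against 162 and 152 CPM in Nr1d1+/+ (log2 fold 0.72, SE 0.17, adjusted p = 0.0133, edgeR). Psma1, Psma2, Psma3 and Psma5 were higher without overlap but did not pass the test, with log2 folds of 0.31 to 0.44. Psma2 measured 142 and 142 CPM in Nr1d1-/-, against 112 and 117 CPM in Nr1d1+/+, and Psma3 464 and 420.1 CPM in Nr1d1-/-, against 325 and 348 CPM in Nr1d1+/+. Both were called with the trends removed, at log2 folds of 0.74 and 0.79 (edgeR adjusted p = 0.0145 and 0.0136); their annotated transcripts, 2911 and 2846 bases, were long for core subunits. Psma4 overlapped between the genotypes, with 433 and 366 CPM in Nr1d1-/-, against 403 and 354 CPM in Nr1d1+/+.

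Immunoproteasome genes were split: Psme2, Psmb10 and Psmb8 rose, and Psmb9 and Psme1 did not pass the test (3 of 5, against 16.5% of all genes). The median log2 fold was 0.73 (0.13 to 0.87), and summed levels were 1275 and 1434 CPM in Nr1d1-/-, against 1059 and 735 CPM in Nr1d1+/+. Nr1d1+/+ replicate 2 was the lowest library for all 5 genes. Without that library none of the 5 passed, and removing the GC and length trends likewise left no call (median log2 fold 0.31).

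Psme2, the beta subunit of the activator ring, measured 363 and 374 CPM in Nr1d1-/-, against 229.5 and 189 CPM in Nr1d1+/+. Its groups were well apart, and the log2 fold was 0.82 (SE 0.18, adjusted p = 0.00991, edgeR), or 0.66 without Nr1d1+/+ replicate 2 (adjusted p = 0.0797). Psme2b, on chr11:48945354-48946190, is 99.4% identical to Psme2 over 794 bases, so reads of the pair could have been split and both values are uncertain. Psme2b was counted at 6.96 and 8.0 CPM in Nr1d1-/-, against 3.08 and 3.26 CPM in Nr1d1+/+ (log2 fold 1.24, SE 0.35, adjusted p = 0.0273, edgeR), a call that was lost without Nr1d1-/- replicate 2 (1.12) and without either Nr1d1+/+ library (1.16 and 1.26). Psme1, the partner of Psme2 in the ring and its neighbour 5.9 kb away on chromosome 14, measured 701 and 803 CPM in Nr1d1-/-, against 658 and 436 CPM in Nr1d1+/+. The Psme1 groups did not overlap, but Nr1d1+/+ replicate 1 came close to the lower Nr1d1-/- value, and the log2 fold of 0.46 (SE 0.23) did not pass (adjusted p = 0.148, edgeR).

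Psmb8, the inducible chymotrypsin-like subunit, measured 139 and 178 CPM in Nr1d1-/-, against 115 and 76.3 CPM in Nr1d1+/+ (log2 fold 0.73, SE 0.23, adjusted p = 0.0401, edgeR). Psmb10, the inducible trypsin-like subunit at chr8:105935735-105938444, measured 59.3 and 67.8 CPM in Nr1d1-/-, against 44.6 and 25.0 CPM in Nr1d1+/+ (log2 fold 0.87, SE 0.27, adjusted p = 0.0383, edgeR). Neither held without Nr1d1-/- replicate 2 (log2 folds 0.52 and 0.75) or without Nr1d1+/+ replicate 2 (0.44 and 0.49). Psmb9, the inducible caspase-like subunit, overlapped between the genotypes, at 13.0 and 11.3 CPM in Nr1d1-/-, against 12.7 and 9.43 CPM in Nr1d1+/+ (log2 fold 0.13, SE 0.29, adjusted p = 0.758, edgeR). It was the least abundant of the 5 per kilobase, at 8.98 CPM per kb in Nr1d1-/- and 8.19 in Nr1d1+/+, below Psmb10 (48.5 and 26.6), Psmb8 (97.4 and 58.7), Psme2 (383 and 217) and Psme1 (676 and 492).

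**Figure D3:**
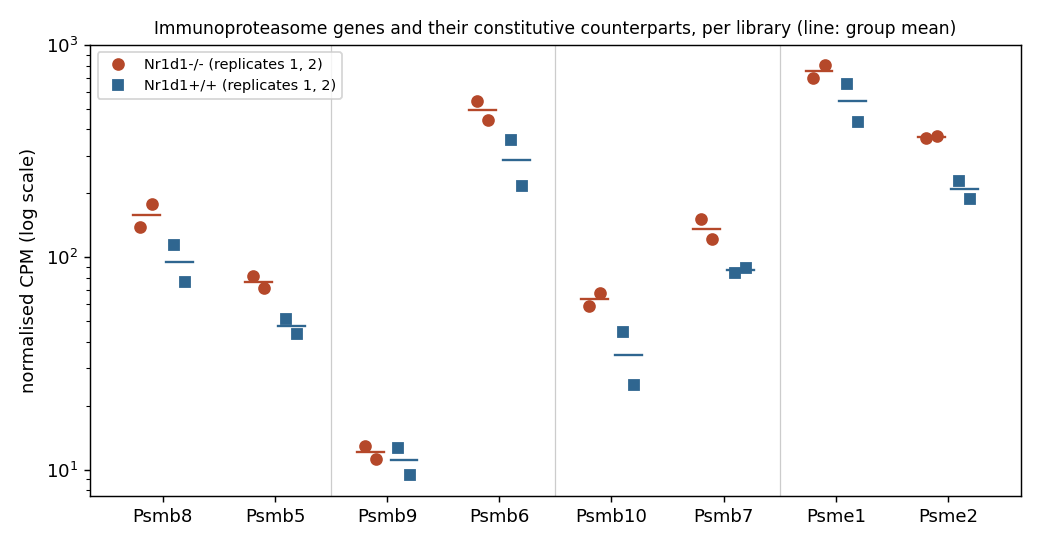
TMM-normalised CPM of the 3 inducible catalytic subunits, their 3 constitutive counterparts and the 2 activator subunits in each library, Nr1d1-/- left and Nr1d1+/+ right, on a log axis, with a line for the mean of the 2 libraries. Points of the genotypes overlap for Psmb9 and are apart for the other genes.

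Inducible subunits were also set against the constitutive ones that they replace, as ratios of CPM per kilobase of transcript. The per-kilobase ratio of Psmb8 to Psmb5 was 0.939 and 1.37 in Nr1d1-/-, against 1.23 and 0.966 in Nr1d1+/+, with overlap. The per-kilobase ratio of Psmb10 to Psmb7 was 0.347 and 0.492 in Nr1d1-/-, against 0.467 and 0.249 in Nr1d1+/+, again with overlap. The per-kilobase ratio of Psmb9 to Psmb6 was 0.0141 and 0.015 in Nr1d1-/-, against 0.021 and 0.0256 in Nr1d1+/+, lower in both Nr1d1-/- libraries (difference -0.67 on the log2 scale). Exact permutation tests (both sides) gave p = 1, 0.667 and 0.333, where 0.333 is the smallest p that 2 against 2 libraries allow.

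Psmb8 and Psmb9 lie in the MHC class II region of chromosome 17 beside the peptide transporter genes Tap1 and Tap2, and Psmb9 (chr17:34181987-34187764, minus strand) overlaps Tap1 (chr17:34187553-34197225, plus strand). The sources do not say if strand was used in counting, so reads of that pair may not be told apart. Tap1 measured 31.2 and 46.0 CPM in Nr1d1-/-, against 44.5 and 45.0 CPM in Nr1d1+/+, and Tap2 70.5 and 75.8 CPM in Nr1d1-/-, against 90.8 and 75.6 CPM in Nr1d1+/+. Both overlapped and neither passed the test (edgeR adjusted p = 0.511 and 0.467). Psmb8 was therefore the gene of this cluster of 4 that rose.

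Transcripts of leukocytes, which carry immunoproteasomes constitutively, were also measured. Pan-leukocyte markers summed to 71.3 and 92.0 CPM in Nr1d1-/-, against 41.9 and 59.2 CPM in Nr1d1+/+ (1 of 4 rose, against 16.5% of all tested genes). Coro1a was the one that rose (log2 fold 1.42). Laptm5 (0.45), Ptprc (-1.18) and Cd53 (-0.31) did not pass, and Ptprc and Cd53 overlapped between the genotypes. Myeloid and dendritic markers summed to 361 and 520.2 CPM in Nr1d1-/-, against 164 and 248 CPM in Nr1d1+/+. Of 10 tested 4 rose (C1qa, C1qb, C1qc and Xcr1), against 16.5% of all tested genes. Csf1r (log2 fold 0.44), Itgax (0.41) and Itgam (0.30) were higher without overlap and did not pass. Adgre1 (0.02), Cd68 (0.21) and Lyz2 (0.74) overlapped. T and NK cell markers summed to 22.3 and 20.8 CPM in Nr1d1-/-, against 15.1 and 18.5 CPM in Nr1d1+/+. Of 7 tested 1 rose and 1 fell, against 16.5% and 17.3% of all tested genes. Cd3d rose (11.6 and 10.4 CPM in Nr1d1-/-, against 3.93 and 3.97 CPM in Nr1d1+/+). It was the largest part of the Nr1d1-/- sums. Gzmb fell (log2 fold -2.32). Cd4 (1.42) and Cd8b1 (1.29) were higher and Cd8a (-3.33) was lower without overlap, and none of them passed. Cd3g (-0.73) and Cd3e (-0.15) overlapped. B cell markers summed to 12.4 and 13.3 CPM in Nr1d1-/-, against 3.5 and 2.97 CPM in Nr1d1+/+, where 1 marker could be tested and rose. The part of these cells in the immunoproteasome values was not tested.

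The regulatory particle rose in 8 of 17 members, against 16.5% of all tested genes, and none fell (median log2 fold 0.50, from -0.20 to 1.45). Its summed level was 4849.5 and 4428 CPM in Nr1d1-/-, against 2855 and 2665 CPM in Nr1d1+/+. Of 11 non-ATPase subunits 6 rose, and of 6 ATPases 2 rose. With the GC and length trends removed 4 non-ATPase subunits (Psmd1, Psmd2, Psmd11 and Psmd13) and no ATPase rose, and 5 of the 17 rose without Nr1d1+/+ replicate 2, when Psmd3 (log2 fold 0.61), Psmd4 (0.61) and Psmd11 (0.53) did not pass. The call of Psmd4 was also lost without Nr1d1-/- replicate 1 (0.66).

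Psmd1, a large scaffold of the base at chr1:86064387-86139151, measured 1001 and 664 CPM in Nr1d1-/-, against 335 and 274 CPM in Nr1d1+/+. It had the largest log2 fold of the regulatory particle (1.45, SE 0.23, adjusted p = 0.00362, edgeR). The Nr1d1-/- libraries lay far apart from each other, and the log2 fold was larger with the trends removed (1.72). Psmd13, a subunit of the lid at chr7:140881968-140898643, measured 339.9 and 337 CPM in Nr1d1-/-, against 135 and 115 CPM in Nr1d1+/+ (log2 fold 1.44, SE 0.18, adjusted p = 0.00207, edgeR). Psmd1 overlaps Htr2b and Psmd13 overlaps Sirt3 on the opposite strand, so their counts could include reads of the partner if strand was not used.

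Among the ATPases that unfold substrates, Psmc3 measured 452 and 513 CPM in Nr1d1-/-, against 271 and 242 CPM in Nr1d1+/+ (log2 fold 0.91, SE 0.18, adjusted p = 0.0064, edgeR). Psmc4 measured 256 and 193 CPM in Nr1d1-/-, against 115 and 119 CPM in Nr1d1+/+ (log2 fold 0.94, SE 0.19, adjusted p = 0.00789, edgeR). The other 4 ATPases did not pass, and Psmc1, Psmc2 and Psmc5 had log2 folds of 0.35 to 0.44. Psmc6 lay below its controls in both Nr1d1-/- libraries (128 and 129.5 CPM, against 135 and 159.9 CPM in Nr1d1+/+; adjusted p = 0.41, edgeR), with a log2 fold of -0.20, and of 0.13 once the trends were removed.

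Subunits that handle ubiquitin differed among themselves. Psmd4, a ubiquitin receptor and per kilobase the most abundant subunit of the particle, measured 764 and 633 CPM in Nr1d1-/-, against 451 and 349 CPM in Nr1d1+/+ (log2 fold 0.80, SE 0.20, adjusted p = 0.0168, edgeR). Psmd14, the deubiquitinase that removes the chain, measured 114 and 107 CPM in Nr1d1-/-, against 82.7 and 98.6 CPM in Nr1d1+/+ and did not pass (log2 fold 0.29, adjusted p = 0.244, edgeR). Psmd2, the other large scaffold, measured 260.3 and 297 CPM in Nr1d1-/-, against 188 and 207 CPM in Nr1d1+/+, and missed the threshold narrowly (log2 fold 0.50, adjusted p = 0.0535, edgeR).

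The lid subunit Psmd3 lies 71952 bases from Nr1d1 on chromosome 11, at chr11:98682554-98695979. It measured 149 and 163 CPM in Nr1d1-/-, against 100.1 and 88.7 CPM in Nr1d1+/+ (log2 fold 0.72, SE 0.17, adjusted p = 0.0144, edgeR), and 0.32 with the trends removed. Psmd8 measured 238 and 189 CPM in Nr1d1-/-, against 111 and 113 CPM in Nr1d1+/+ (log2 fold 0.93, SE 0.18, adjusted p = 0.00688, edgeR). Psmd11 measured 135 and 143 CPM in Nr1d1-/-, against 94.6 and 90.6 CPM in Nr1d1+/+ (log2 fold 0.59, SE 0.17, adjusted p = 0.0279, edgeR), a call that was lost whichever library was left out (log2 folds 0.53 to 0.62). Psmd12, also of the lid, overlapped between the genotypes (147 and 119.9 CPM in Nr1d1-/-, against 157 and 133 CPM in Nr1d1+/+). Psmd6 and Psmd7 were higher without overlap and did not pass (log2 folds 0.43 and 0.46). Lid transcripts thus ranged from a log2 fold of -0.12 to 1.44.

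Assembly chaperones build the particle and are not part of the finished proteasome. They were low in level, summing to 249.7 and 248 CPM in Nr1d1-/-, against 187 and 170.5 CPM in Nr1d1+/+. Psmd9 and Psmg3 rose, 2 of 7 against 16.5% of all tested genes, and the other 5 did not pass (median log2 fold 0.56). Psmd9, which guides assembly of the ATPase ring, measured 47.9 and 51.5 CPM in Nr1d1-/-, against 30.3 and 24.1 CPM in Nr1d1+/+ (log2 fold 0.87, SE 0.21, adjusted p = 0.0146, edgeR), and stood with the trends removed (0.83). Psmg3, which acts with Psmg4 on the alpha ring, measured 22.8 and 24.5 CPM in Nr1d1-/-, against 12.5 and 13.7 CPM in Nr1d1+/+ (log2 fold 0.85, SE 0.24, adjusted p = 0.0245, edgeR), with 0.16 once the trends were removed. Psmg4 measured 46.6 and 40.3 CPM in Nr1d1-/-, against 32.0 and 26.0 CPM in Nr1d1+/+ (adjusted p = 0.0641, edgeR). Psmd5, an ATPase-ring chaperone, overlapped, at 36.7 and 40.5 CPM in Nr1d1-/-, against 37.4 and 36.4 CPM in Nr1d1+/+. The remaining chaperones Psmg1, Psmg2 and Psmd10 had log2 folds of 0.56, 0.31 and 0.20. Without Nr1d1+/+ replicate 2 no chaperone passed (Psmd9 0.69, edgeR adjusted p = 0.127, and Psmg3 0.90, adjusted p = 0.106). The call of Psmg3 was also lost without Nr1d1+/+ replicate 1 (0.74) and without Nr1d1-/- replicate 2 (0.78).

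The alternative activators and the inhibitor went the other way. All 3 were lower in both Nr1d1-/- libraries without overlap, as were 36.2% of all tested genes, and 1 of the 3 passed the test. Their summed level was 139 and 127 CPM in Nr1d1-/-, against 245 and 220.2 CPM in Nr1d1+/+. Psme4, the large single-chain activator known from DNA repair and from spermatogenesis (chr11:30771726-30880361), measured 50.4 and 32.0 CPM in Nr1d1-/-, against 114 and 107 CPM in Nr1d1+/+. Its fall was the only one among the members that passed (log2 fold -1.43, SE 0.24, adjusted p = 0.00386, edgeR), and it held with the trends removed (-0.90, adjusted p = 0.0256) and without each library (-1.79 to -1.15). Psme3, a nuclear activator, measured 68.1 and 76.8 CPM in Nr1d1-/-, against 103 and 88.5 CPM in Nr1d1+/+ (log2 fold -0.40, adjusted p = 0.123, edgeR). Psmf1, known as an inhibitor of the core in vitro, measured 20.2 and 17.9 CPM in Nr1d1-/-, against 27.9 and 24.9 CPM in Nr1d1+/+ (log2 fold -0.47, adjusted p = 0.136, edgeR). With the trends removed the log2 folds were -0.30 for Psme3 and -0.20 for Psmf1 (edgeR adjusted p = 0.241 and 0.529). Per kilobase Psme4 was at 6.35 CPM per kb in Nr1d1-/- and 17.0 in Nr1d1+/+, far under the activator genes Psme1 and Psme2.

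Psma8 and Psmb11 are core subunits of single tissues. Psma8, known from testis, had 4 and 0 counts in Nr1d1-/-, against 2 and 0 counts in Nr1d1+/+, and was not tested. Psmb11, known from cortical epithelium of the thymus, was counted at 7.33 and 4.84 CPM in Nr1d1-/-, against 1.80 and 1.2 CPM in Nr1d1+/+ (log2 fold 2.01, SE 0.46, adjusted p = 0.0118, edgeR; 1.72, adjusted p = 0.0925 without Nr1d1+/+ replicate 2). Its annotated transcript shares stretches of at least 100 bases at 90% identity or more with transcripts of 770 other genes, and the gene begins 3410 bases from Psmb5, so the count is uncertain as a measure of this subunit. Psmc3ip, a meiotic recombination factor that shares only the name, measured 36.5 and 34.4 CPM in Nr1d1-/-, against 46.4 and 34.4 CPM in Nr1d1+/+ and did not pass (adjusted p = 0.535, edgeR). In all, 11 members have an annotated copy at least 95% identical over at least 300 bases (Psma3, Psma4, Psma5, Psmb3, Psmb5, Psmc1, Psmd1, Psmd2, Psmd11 and the Psme2 pair), and how reads with several matches were counted is not stated. Psma3, Psma4, Psmb7, Psmc3, Psmd5, Psmd9 and Psme1 also overlap a counted gene on the opposite strand. Psma2 (with AW209491) and Psme2b (with 9930111J21Rik1 and Gm12185) overlap counted genes on the same strand, which use of strand would not separate. Leaving out Psmc3ip and Psme2b, 23 of 47 members rose, 1 fell and 23 did not pass.

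Genes that work with the proteasome were compared from 5 lists. Among 11 other subunits and associated proteins, Adrm1 rose and Zfand5 fell, 1 of 11 each way against 16.5% and 17.3% of all tested genes (median log2 fold -0.04). Adrm1, the ubiquitin receptor of the particle outside the Psm names, measured 192 and 207 CPM in Nr1d1-/-, against 119 and 123 CPM in Nr1d1+/+ (log2 fold 0.72, SE 0.17, adjusted p = 0.0124, edgeR), and 0.04 with the trends removed. It did not pass without Nr1d1+/+ replicate 1 (0.65, edgeR adjusted p = 0.0757) or replicate 2 (0.73, adjusted p = 0.0654). Sem1, a small lid subunit, measured 545 and 465 CPM in Nr1d1-/-, against 388 and 287 CPM in Nr1d1+/+ (adjusted p = 0.0552, edgeR). Pomp, the chaperone that matures the core, measured 197 and 215 CPM in Nr1d1-/-, against 178 and 153 CPM in Nr1d1+/+ (adjusted p = 0.183, edgeR). Zfand5, an activator of the proteasome, measured 42.2 and 38.5 CPM in Nr1d1-/-, against 83.7 and 121 CPM in Nr1d1+/+ (log2 fold -1.34, SE 0.22, adjusted p = 0.00382, edgeR).

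Nfe2l1 encodes the transcription factor also called NRF1, which raises proteasome genes when degradation falls short. It measured 152 and 166 CPM in Nr1d1-/-, against 226 and 188 CPM in Nr1d1+/+, lower in both Nr1d1-/- libraries without passing the test (log2 fold -0.38, SE 0.18, adjusted p = 0.132, edgeR). Of the 9 genes listed for Nfe2l1, its processing and its partners, 5 fell and none rose (median log2 fold -0.79, against 17.3% of all genes falling). The count was 3 with the GC and length trends removed and 1 without Nr1d1+/+ replicate 2. Mafg, a small Maf partner, measured 9.16 and 8.19 CPM in Nr1d1-/-, against 33.3 and 22.5 CPM in Nr1d1+/+ (log2 fold -1.69, SE 0.29, adjusted p = 0.00409, edgeR; -1.62 with the trends removed), and was called without each library in turn. Sel1l and Syvn1, of the ubiquitin ligase of the endoplasmic reticulum that turns Nfe2l1 over, had log2 folds of -0.81 and -0.71 (edgeR adjusted p = 0.00985 and 0.0297). Ddi2, the protease that activates Nfe2l1, measured 14.2 and 17.5 CPM in Nr1d1-/-, against 22.6 and 38.6 CPM in Nr1d1+/+ (log2 fold -0.94, adjusted p = 0.0386, edgeR). The fifth, Maff, was named after its values were seen (log2 fold -1.26, adjusted p = 0.0404, edgeR). Apart from Mafg, each of these calls was lost without at least 1 library.

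Ubiquitin supply and shuttle genes went in both directions, with 2 of 11 higher and 2 lower, against 16.5% and 17.3% of all tested genes (median log2 fold -0.27). Uba1, the enzyme that activates ubiquitin, measured 560.2 and 479 CPM in Nr1d1-/-, against 306 and 355 CPM in Nr1d1+/+ (log2 fold 0.65, adjusted p = 0.0252, edgeR). The shuttle genes Ubqln2 and Ubqln4 fell, with log2 folds of -0.95 and -0.62 (edgeR adjusted p = 0.0132 and 0.0429). Leaving out either Nr1d1+/+ library ended the calls of Uba1 (log2 fold 0.50 without replicate 1 and 0.74 without replicate 2), Ubqln2 (-0.97 and -1.0) and Ubqln4 (-0.67 and -0.64). The call of Uba1 was also lost without Nr1d1-/- replicate 1 (0.53), and that of Ubqln4 without Nr1d1-/- replicate 2 (-0.47).

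Of 8 genes that carry or control the interferon gamma response, 5 fell, against 17.3% of all tested genes, and none rose (median log2 fold -1.01). Once the GC and length trends were removed 3 fell, against 11.1% of all genes. Those 3, Irf1, Ifngr2 and Jak1, also passed without each library in turn, and Jak2 and Nlrc5 did not. Irf1, a transcription factor that induces immunoproteasome genes, measured 17.9 and 22.3 CPM in Nr1d1-/-, against 41.9 and 42.0 CPM in Nr1d1+/+ (log2 fold -1.06, SE 0.22, adjusted p = 0.00786, edgeR). Ifngr2, a chain of the receptor, measured 26.0 and 23.0 CPM in Nr1d1-/-, against 52.2 and 53.0 CPM in Nr1d1+/+ (log2 fold -1.10, SE 0.20, adjusted p = 0.00499, edgeR). The receptor kinases Jak1 and Jak2 had log2 folds of -1.13 and -0.96 (edgeR adjusted p = 0.00724 and 0.0306). Nlrc5, an activator of MHC class I genes named after its values were seen, had 1.39 and 1.49 CPM in Nr1d1-/-, against 3.41 and 5.75 CPM in Nr1d1+/+ (log2 fold -1.66, SE 0.50, adjusted p = 0.0326, edgeR).

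Of 11 genes that load and present MHC class I peptides, 1 rose and 1 fell (median log2 fold -0.18), against 16.5% higher and 17.3% lower of all tested genes. Tapbpl, a peptide editor, measured 41.1 and 28.5 CPM in Nr1d1-/-, against 16.2 and 16.2 CPM in Nr1d1+/+ (log2 fold 1.10, SE 0.25, adjusted p = 0.0114, edgeR), and missed the threshold without Nr1d1+/+ replicate 1 (1.05) or replicate 2 (1.07, adjusted p = 0.0572). Canx, a chaperone of the heavy chain, measured 296 and 252 CPM in Nr1d1-/-, against 704 and 457 CPM in Nr1d1+/+ (log2 fold -1.08, SE 0.23, adjusted p = 0.0094, edgeR), and -0.58 with the trends removed (adjusted p = 0.122).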

How the data were processed

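Gene counts per symbol in 4 libraries were used as deposited by the authors. Per the labels' protocols, Trizol-extracted total RNA went into libraries of a stranded SMARTer kit. Reads were aligned with TopHat to mm10, per the submitters' processing notes; versions, counting program, annotation and use of strand were not given in the sources used here. The values below were computed from those counts. Genes were kept with edgeR's filterByExpr (minimum count 10), scaled by TMM and tested with edgeR 4.0.16 (quasi-likelihood F test, legacy=FALSE; R 4.3.3) on genotype alone, which leaves 2 residual degrees of freedom. P-values were adjusted by Benjamini-Hochberg over 14801 genes. A floor of 3 counts was 0.22 and 0.186 CPM in Nr1d1-/- and 0.142 and 0.144 CPM in Nr1d1+/+ on the normalised scale. Transcript lengths, GC content and coordinates came from GENCODE M21 (GRCm38), joined to 22230 symbols directly and 657 through a synonym, with 395 unmatched. The GC and length trends of each library were fitted with natural splines of 5 degrees of freedom and passed as offsets. Near-identical copies were searched with BLAST 2.17.0. Scripts were tested on simulated data. Alternatives were other scalings, filters, thresholds, DESeq2 1.42.0, limma-voom (limma 3.58.1), the older and robust quasi-likelihood estimates, a replicate block and leaving out each library. The members and gene lists were chosen with earlier results of these data known. All members are reported; of each list up to 4 genes that passed are named, lowest p first, plus chosen anchors, and some listed genes are not reported here.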

Additional observations from a re-analysis of the deposited data

How the results depend on the processing

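With DESeq2 size factors, the DESeq2 test, limma-voom, the older and robust estimates, and without Rn45s, none of the 49 members changed sign and at most 1 changed side of the threshold. Scaling by library size alone moved the median of all genes to -0.38 and gave 1281 genes higher and 4410 lower (22.5% of calls higher, against 48.8%); 8 members were then higher and 4 lower (core 2, immunoproteasome 0, regulatory particle 5, chaperones 0), with median log2 folds of 0.20 for all members, 0.29, 0.36, 0.12 and 0.18 for those classes, still above the median of all genes. Without calls it turned Psma1 (-0.07), Psma2 (-0.07), Psma4 (-0.30), Psmb9 (-0.25), Psmc5 (-0.02), Psmd14 (-0.10), Psmd5 (-0.31), Psmd10 (-0.18), Psmg2 (-0.06) and Pomp (-0.05). Upper quartile factors gave 4 chaperones higher and a core median of 0.73, a mean of at least 5 CPM or an adjusted p under 0.1 gave 4 chaperones, and no low-count filter gave 1 immunoproteasome gene. A minimum absolute log2 fold of 1 left 1501 genes higher, 5 members, 1 core subunit, 2 of the regulatory particle and 0 in the immunoproteasome and chaperones. With GC and length trends removed, 1599 genes were higher and 1620 lower, and 11 members (core 5, immunoproteasome 0, regulatory particle 4, chaperones 1) with medians of 0.31 for all members and 0.33, 0.31, 0.34 and 0.16 for the classes; adding the replicate block gave 15 members, 0 immunoproteasome genes and 1 chaperone, with medians of 0.32, 0.32, 0.32, 0.34 and 0.16. Signs turned in those fits, first without and then with the block, for Psma4 (-0.04, -0.04), Psmb5 (-0.01, -0.01), Psmb9 (-0.35, -0.34), Psme1 (-0.08, -0.06), Psmc6 (0.13, 0.14), Psmd12 (0.01, 0.01) and Psmg4 (-0.14, -0.14), of which Psmb5 had been called. The replicate block alone gave 2622 genes higher and 2704 lower and 26 members higher. Same-numbered samples deviated together with a correlation of 0.026 in both pairs, so the numbers were not taken as pairs. Leaving out each library in turn gave 1036 to 2358 genes higher and 1170 to 2401 lower, and 7 to 18 members higher with 1 lower in each fit (core 2 to 8, immunoproteasome 0 to 3, regulatory particle 5 to 7, chaperones 0 to 2). Medians ranged from 0.46 to 0.58 for all members, 0.45 to 0.70 for the core, 0.44 to 0.92 for the immunoproteasome, 0.47 to 0.59 for the regulatory particle and 0.41 to 0.66 for chaperones. The log2 ratio differences ranged from -0.22 to 0.33 (Psmb8 to Psmb5), -0.82 to -0.53 (Psmb9 to Psmb6) and -0.18 to 0.73 (Psmb10 to Psmb7). The log2 fold took both signs, without a call, over these fits for Psma4 (-0.05 to 0.18), Psmb9 (-0.10 to 0.31), Psmd5 (-0.03 to 0.13), Psmd12 (-0.28 to 0.01), Tap1 (-0.53 to 0.04), Nr1d1 (-0.80 to 0.14), and, called only in the fit without Nr1d1-/- replicate 2, for the muscle gene Ckm (-0.26 to 6.22). The cause of these changes was not tested. With 2 libraries a group, members that miss the threshold are not shown to be equal between genotypes.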
